A study of Mus musculus with 12 samples.

Results

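The genes described here are 40 genes of the antioxidant response governed by the transcription factor NRF2, without the glutathione S-transferases. They were taken from a table of 55487 mouse genes by their symbols, from a list chosen with earlier results of these data known. They comprise NRF2 itself (gene Nfe2l2) and its inhibitor Keap1, 7 inducible targets, 5 genes of glutathione synthesis and recycling, 3 thioredoxin genes and 6 peroxiredoxins. The rest are 5 glutathione peroxidases, catalase with 3 superoxide dismutases, 6 genes grouped as NADPH enzymes and 2 ferritin chains. All 40 were matched to a row of the table, and 38 had enough reads to be tested, among 12897 genes tested in all.

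The cells were a mouse tubular epithelial line with conditional immortalisation, from the cell type that lines the kidney tubule, in a study of NNMT overexpression in relation to tubular senescence and fibrosis. The immortalising SV40 large T antigen is kept up at 33 °C by interferon γ (10 ng/mL) and was brought down by 7 days at 37 °C with no interferon before the experiment. The 4 groups of 3 libraries each were cells with an Nnmt expression construct given TGFβ, the same cells without TGFβ (titled Nnmt-OE, and Nmt-OE in the genotype field), cells with a mock construct given TGFβ, and mock cells without it. All 4 groups were selected on puromycin. Treatment with TGFβ lasted 48 h at 10 ng/mL. Nnmt encodes nicotinamide N-methyltransferase, which uses S-adenosylmethionine to methylate nicotinamide. Nothing in the labels says that the 3 libraries of a group came from separate cultures, and the p-values reflect how these libraries varied, which may be technical variation only.

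NRF2 is a transcription factor that KEAP1 holds in the cytoplasm and passes to a ubiquitin ligase, so that little of it lasts in an unstressed cell. Electrophiles and peroxides modify cysteines of KEAP1, newly made NRF2 then reaches the nucleus with small MAF proteins, and it binds antioxidant response elements near genes for glutathione synthesis, thioredoxins, quinone and haem breakdown, NADPH supply and iron storage. In mice, NRF2 activity is known to protect the kidney tubule from ischaemic and toxic injury. TGFβ is the main profibrotic cytokine of the kidney and is known to turn on the oxidase NOX4. NRF2 is controlled largely as a protein, which was not measured here.

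The antioxidant response element was searched as TGACNNNGC on either strand (GCNNNGTCA on the other) in the 300 bases from 250 before to 50 after each RefSeq start, on build GRCm38.p6. It was present for 9 of the 34 members with a window (26.5%), against 3781 of 27025 genes (14%), and no other motif was searched. The 9 were Nfe2l2, Srxn1, Gclm, Txnrd1, Prdx1, Sod1, G6pdx, Pgd and Me1. Windows are shown for 4 of them, Nfe2l2 and Srxn1, which fell with TGFβ, and Gclm and Prdx1, which did not pass the test. Nfe2l2 lies on the reverse strand at chr2:75704614-75704913, Srxn1 on the forward strand at chr2:152105274-152105573, Gclm on the forward strand at chr3:122245307-122245606 and Prdx1 on the forward strand at chr4:116685349-116685648. Each is written 5′ to 3′ along its gene, with the motif in capitals.
Nfe2l2: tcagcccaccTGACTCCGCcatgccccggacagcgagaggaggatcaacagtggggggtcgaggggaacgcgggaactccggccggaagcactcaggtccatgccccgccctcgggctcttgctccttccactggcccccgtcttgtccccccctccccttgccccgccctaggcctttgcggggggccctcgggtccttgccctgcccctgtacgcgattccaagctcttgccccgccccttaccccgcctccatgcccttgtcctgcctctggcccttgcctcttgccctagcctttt
Srxn1: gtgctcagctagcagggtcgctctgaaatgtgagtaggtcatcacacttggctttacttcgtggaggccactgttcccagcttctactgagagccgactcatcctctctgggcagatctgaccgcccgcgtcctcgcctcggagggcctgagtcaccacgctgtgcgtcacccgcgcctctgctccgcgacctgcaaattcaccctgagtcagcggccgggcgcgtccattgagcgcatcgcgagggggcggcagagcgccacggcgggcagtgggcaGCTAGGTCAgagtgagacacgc
Gclm: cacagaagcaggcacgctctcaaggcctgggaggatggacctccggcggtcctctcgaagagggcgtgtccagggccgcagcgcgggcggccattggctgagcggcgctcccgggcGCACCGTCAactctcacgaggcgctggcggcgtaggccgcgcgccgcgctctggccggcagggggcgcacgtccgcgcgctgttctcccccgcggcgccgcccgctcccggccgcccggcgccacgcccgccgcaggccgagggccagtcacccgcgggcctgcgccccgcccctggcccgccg
Prdx1: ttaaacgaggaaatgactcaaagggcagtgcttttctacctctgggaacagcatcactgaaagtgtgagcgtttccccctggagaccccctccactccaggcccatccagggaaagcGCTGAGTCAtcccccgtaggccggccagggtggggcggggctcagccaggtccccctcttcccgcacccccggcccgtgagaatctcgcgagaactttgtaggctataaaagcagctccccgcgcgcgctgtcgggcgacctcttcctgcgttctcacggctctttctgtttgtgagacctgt
The motif's first letter lies 240 bases before the start of Nfe2l2, 134 before that of Gclm and 133 before that of Prdx1, and 28 bases after that of Srxn1. A match is a description of letters, not of a bound site. Of the 9 members with the motif, Nfe2l2 and Srxn1 passed the test and the others did not. Ephx1, Gpx3, Tkt, Fth1 and Txn1 passed it and had windows without the motif, and Abcc1 passed it with no window matched. Bases outside the windows were not searched, so a window without the motif does not show that a gene has none.

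Libraries held 4733846 to 7247413 reads in genes, counted from tags near the 3′ end of each transcript, so a level, the reads of a gene scaled to its library's reads in genes (CPM), is not divided by length. Libraries of the same group all differed beyond sampling noise. Mock replicate 1, TGFβ-treated mock replicate 3 and TGFβ-treated Nnmt-OE replicate 3 stood apart from the rest on the first 3 principal components, so results are also given without them where they change. Epcam and Cdh1, which mark epithelium, were at 0 in all 12 libraries, while the tubular markers Pax2, Pax8, Cdh16 and Krt8 were present and Krt18, Krt19 and Cldn3 stayed under 2 CPM. Of the proximal tubule markers Slc22a6, Slc22a8 and Hnf4a were at 0, Slc34a1, Miox, Ggt1, Cubn and Slc5a2 held 1, 3, 7, 61 and 94 reads in all 12 libraries, and Lrp2 and Aqp1 were present. The endothelial genes Pecam1, Cdh5, Kdr and Tek and the macrophage genes Adgre1 and C1qa were at 0, while Csf1r (51.1 to 88.2 CPM) and the podocyte-list genes Synpo and Podxl were present. Nnmt itself had 33.8, 22.5 and 26.2 CPM in TGFβ-treated Nnmt-OE libraries and 24.4, 28.4 and 22.8 CPM in untreated Nnmt-OE libraries. It had 33.3, 29.6 and 27.9 CPM in TGFβ-treated mock libraries and 24.7, 17.8 and 18.3 CPM in untreated mock libraries. The ratio of Nnmt-OE to mock was 1.25 without TGFβ (95% interval 0.921 to 1.69, edgeR adjusted p = 0.897) and 0.909 with it (0.677 to 1.22, adjusted p = 0.998). A 3′ tag may lie outside the expression construct, in which case this count checks nothing, so the groups are called by their label.

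The antioxidant genes covered a wide range of levels. Of the 40, 20 averaged 100 CPM or more over the 12 libraries, 14 lay from 10 to under 100 CPM and 6 lay under 10 CPM. The highest were Gpx3 (703 CPM), Sod1 (687 CPM), the ferritin chains Fth1 (570.0 CPM) and Ftl1 (539 CPM), Txn1 (489.7 CPM) and Prdx1 (484 CPM). Among the lowest was Nqo1, the quinone reductase often used as the reporter gene of NRF2 activity, at 0.535 to 4.54 CPM. Gpx7 had 0 reads in all 12 libraries, which allows up to 0.0422 CPM over their 71112817 reads, for counting error only, and the secreted superoxide dismutase Sod3 had 16 reads in all.

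The first question was what TGFβ did to these genes. In bulk RNA, fewer cells of a kind and less RNA per cell cannot be told apart. Over both constructs, 8 of the 38 tested members passed the test (21.1%), against 5.08% of all genes. With TGFβ 6 were lower, Nfe2l2, Srxn1, Ephx1, Gpx3, Tkt and Fth1 (15.8%), against 2.6% of all genes. Abcc1 and Txn1 were higher (5.26%), against 2.48% of all genes. In the table they are ENSMUSG00000015839 (Nfe2l2), ENSMUSG00000032802 (Srxn1), ENSMUSG00000038776 (Ephx1), ENSMUSG00000018339 (Gpx3), ENSMUSG00000021957 (Tkt), ENSMUSG00000024661 (Fth1), ENSMUSG00000023088 (Abcc1) and ENSMUSG00000028367 (Txn1). The fitted ratios were modest, from 1.38-fold lower for Ephx1 to 1.26-fold higher for Abcc1. Among well-read genes the background is higher: 6 of the 20 members at 100 CPM or more passed (30%), against 13.8% of all genes at that level. The median log2 fold change of the 38 members was -0.016 and that of all genes -0.005.

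**Figure D1:**
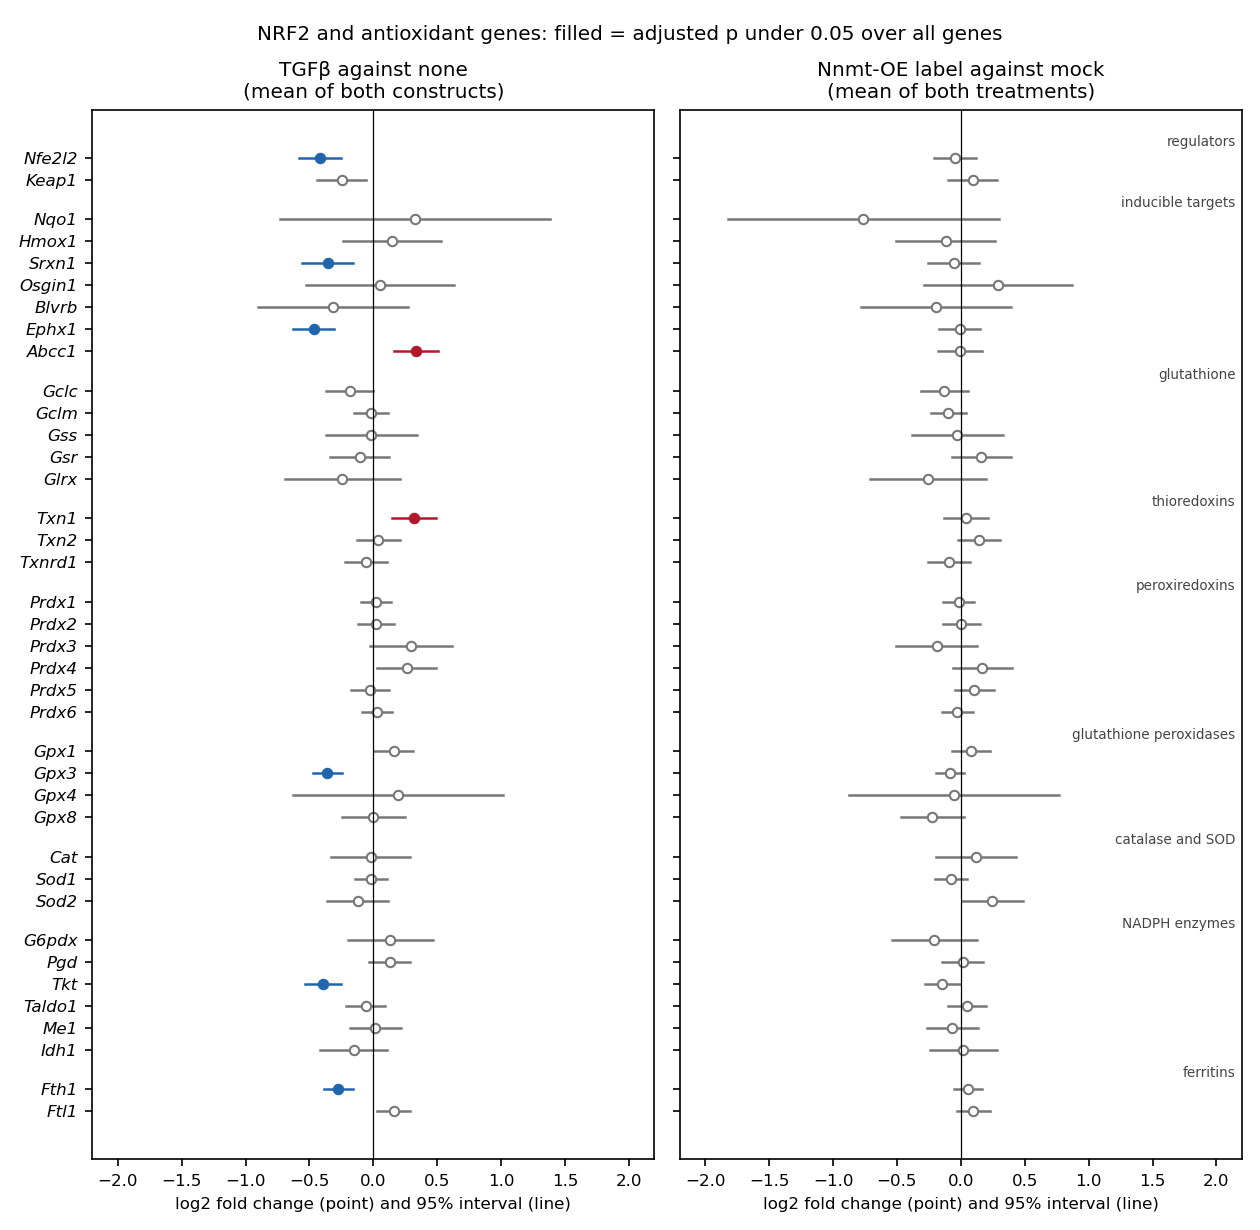
Log2 fold change (points) with its 95% interval (lines) for the 38 tested members, ordered by role, for TGFβ against none averaged over both constructs (left) and for the Nnmt-OE label against mock averaged over both treatments (right). Filled points, 8 on the left and 0 on the right, had an adjusted p under 0.05 over all 12897 genes, blue for lower and red for higher.

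Within one construct at a time, with 3 libraries against 3, fewer members passed. The shares of all genes set beside them are over all levels, not matched to those of the members. In Nnmt-OE cells Ephx1, Tkt and Fth1 were lower, 3 of 38 (7.89%), against 1.4% of all genes (0.651% higher and 0.744% lower). That count was 0 without Nnmt-OE replicate 3 (0.73% of all genes) or any 1 of the 3 TGFβ-treated Nnmt-OE libraries (0.744 to 0.783%). It was 1 without Nnmt-OE replicate 1 (0.821%) or TGFβ-treated mock replicate 2 (1.14%), and 6 without mock replicate 1 (2.3%). In mock cells Ephx1, Gpx3 and Tkt were lower and Abcc1 was higher, 4 of 38 (10.5%), against 1.43% of all genes (0.667% higher and 0.76% lower). The count in mock cells was 1 without TGFβ-treated mock replicate 1 (0.863% of all genes). It was 2 without mock replicate 1 (0.964%), mock replicate 2 (1.01%) or TGFβ-treated mock replicate 2 (0.737%). Across both, 24 of the 38 had the same sign in Nnmt-OE and in mock cells (63.2%), against 61.1% of all genes, and these contrasts share no library. The difference between the constructs in their TGFβ response, tested as an interaction, passed for 0 members at an adjusted p of 0.05 in edgeR, limma-voom and DESeq2. In edgeR it passed for 0 of all 12897 genes (0%). An unadjusted p under 0.05 in edgeR was found for 0 of the 38 members, against 3.88% of all genes.

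**Figure D2:**
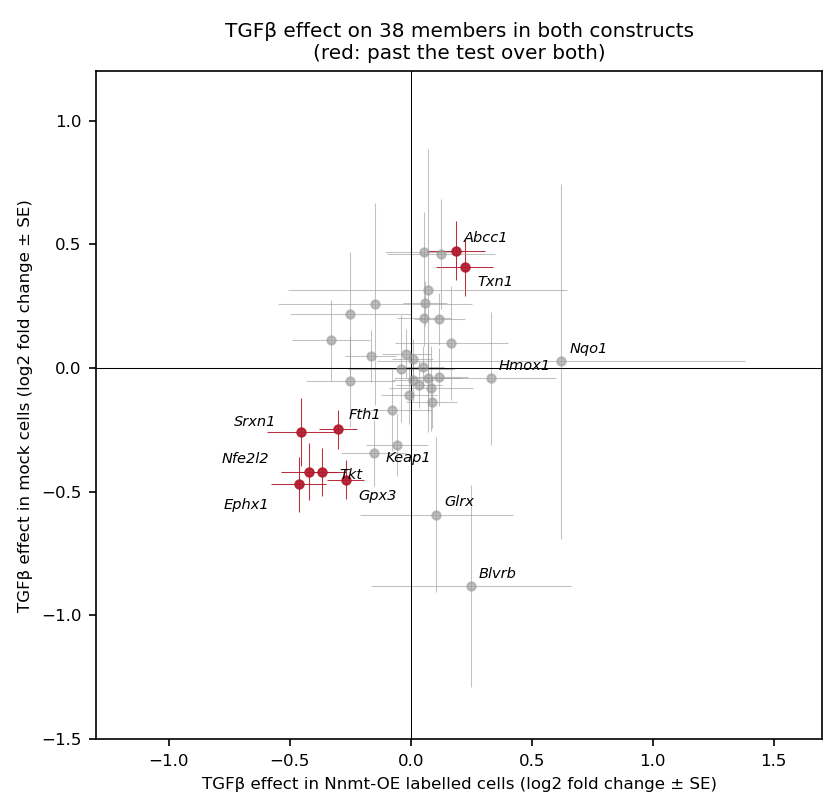
TGFβ effect in Nnmt-OE cells (horizontal) and in mock cells (vertical), as log2 fold change ± SE, for the 38 tested members. The 8 in red passed the test over both constructs, 6 in the lower left and 2 in the upper right, while Blvrb, Glrx and Nqo1 lie far out with wide errors.

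Among the regulators, Nfe2l2, which encodes NRF2, was lower in every TGFβ library than in every untreated one. It had 122, 140.0 and 123 CPM in TGFβ-treated Nnmt-OE libraries and 140.2, 117 and 140.0 CPM in TGFβ-treated mock libraries. It had 160.0, 168 and 187 CPM in untreated Nnmt-OE libraries and 209, 169.8 and 152 CPM in untreated mock libraries. The gap between the groups is narrow, from 140.2 CPM in the highest TGFβ library to 152 CPM in the lowest untreated one, and mock replicate 1 was the highest of all. Averaged over both constructs Nfe2l2 fell by 25.3% (log2 fold change -0.42 ± 0.08 SE, edgeR adjusted p = 0.000663). The log2 fold change was -0.42 in Nnmt-OE cells (edgeR adjusted p = 0.0516) and -0.42 in mock cells (adjusted p = 0.0505), and neither passed alone in edgeR. DESeq2 called both (adjusted p = 0.0386 in Nnmt-OE and 0.0345 in mock cells) and limma-voom the one in mock cells (0.0485). Without mock replicate 1 the averaged log2 fold change was -0.35 with an adjusted p of 0.00214.

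Keap1, which encodes the inhibitor that targets NRF2 for breakdown, had 106, 109.9 and 119 CPM in TGFβ-treated Nnmt-OE and 105, 115 and 72.7 CPM in TGFβ-treated mock libraries. In untreated libraries it had 109.9, 115 and 148 CPM with Nnmt-OE and 122, 119.8 and 132 CPM with mock. The groups overlapped, and TGFβ-treated mock replicate 3, a library that stood apart, was the lowest. Its averaged log2 fold change of -0.25 ± 0.09 did not pass (edgeR adjusted p = 0.137).

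Of the 7 inducible targets 2 fell and 1 rose, against 2.6% of all genes lower and 2.48% higher. Ephx1, microsomal epoxide hydrolase, which opens reactive epoxides to diols, had 183, 191 and 171 CPM in TGFβ-treated Nnmt-OE and 150.4, 186 and 211 CPM in TGFβ-treated mock libraries. Without TGFβ the values were 232, 226 and 294 CPM with Nnmt-OE and 279, 236 and 243 CPM with mock. All 6 TGFβ libraries lay below all 6 untreated ones. Ephx1 fell by 27.6% averaged over both constructs (log2 fold change -0.47 ± 0.08, edgeR adjusted p = 0.000128). Taken alone it fell by 27.5% in Nnmt-OE cells (edgeR adjusted p = 0.0219) and it fell by 27.8% in mock cells (adjusted p = 0.0188). The Nnmt-OE call of Ephx1 was lost without Nnmt-OE replicate 3 or any 1 TGFβ-treated Nnmt-OE library (adjusted p up to 0.272). Its mock call was lost without mock replicate 1 or TGFβ-treated mock replicates 1 or 2 (up to 0.211), and with the mock groups fitted alone (0.0819).

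Srxn1, sulfiredoxin, which repairs over-oxidised peroxiredoxins, had 74.2, 79.1 and 85.6 CPM in TGFβ-treated Nnmt-OE and 97.8, 95.8 and 71.5 CPM in TGFβ-treated mock libraries. Untreated Nnmt-OE libraries had 107, 119 and 101 CPM and untreated mock libraries 80.9, 111 and 126 CPM. In Nnmt-OE cells the TGFβ libraries all lay below the untreated ones, while in mock cells the groups overlapped. Srxn1 fell by 21.9% averaged over both (log2 fold change -0.36 ± 0.10, edgeR adjusted p = 0.0228). That call was lost when any of 6 libraries was left out: mock replicates 2 and 3, TGFβ-treated mock replicate 3, Nnmt-OE replicate 2, or TGFβ-treated Nnmt-OE replicates 1 and 2, with adjusted p up to 0.104.

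Abcc1, a pump that exports glutathione conjugates, had 88.8, 106 and 94.3 CPM in TGFβ-treated Nnmt-OE and 103, 107 and 112 CPM in TGFβ-treated mock libraries. The untreated groups had 89.0, 77.0 and 88.0 CPM with Nnmt-OE and 76.6, 81.1 and 73.6 CPM with mock. The Nnmt-OE groups met at 88.8 CPM with TGFβ and 89 CPM without, while every TGFβ-treated mock library lay above every untreated mock library. Abcc1 was 1.26-fold higher over both constructs (edgeR adjusted p = 0.0136). In Nnmt-OE cells the log2 fold change was 0.19 ± 0.12 (edgeR adjusted p = 0.624). In mock cells Abcc1 was 1.39-fold higher (log2 fold change 0.48 ± 0.12, edgeR adjusted p = 0.0296), and the interaction for Abcc1 was -0.29 ± 0.17 (adjusted p = 0.999). The call in mock cells was lost without any 1 of the 6 mock and TGFβ-treated mock libraries (adjusted p up to 0.109), without the 3 libraries that stood apart (0.115) and with the mock groups fitted alone (0.0831). The call over both constructs was lost without TGFβ-treated Nnmt-OE replicate 2 (adjusted p = 0.0606).

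The 4 other inducible targets did not pass. Hmox1, haem oxygenase 1, which breaks haem down to biliverdin, iron and carbon monoxide, had 12.4, 21.8 and 19.6 CPM in TGFβ-treated Nnmt-OE and 17.1, 15.0 and 19.2 CPM in TGFβ-treated mock libraries. In untreated libraries it had 15.0, 11.9 and 15.9 CPM with Nnmt-OE and 23.4, 14.4 and 14.8 CPM with mock. Its averaged log2 fold change of 0.14 had a 95% interval of -0.24 to 0.53 (edgeR adjusted p = 0.783). Nqo1 had 3.96, 1.90 and 1.46 CPM in TGFβ-treated Nnmt-OE and 1.82, 4.54 and 3.88 CPM in TGFβ-treated mock libraries. Without TGFβ the values were 0.535, 1.17 and 3.10 CPM with Nnmt-OE and 3.19, 4.45 and 2.45 CPM with mock. With 192 reads in all 12 libraries its interval of -0.73 to 1.38 on the log2 scale spans a large change either way, so a difference in Nqo1 was not detectable at this depth. Osgin1 and the biliverdin reductase Blvrb lay under 10 CPM on average, with averaged log2 fold changes of 0.05 and -0.32.

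**Figure D3:**
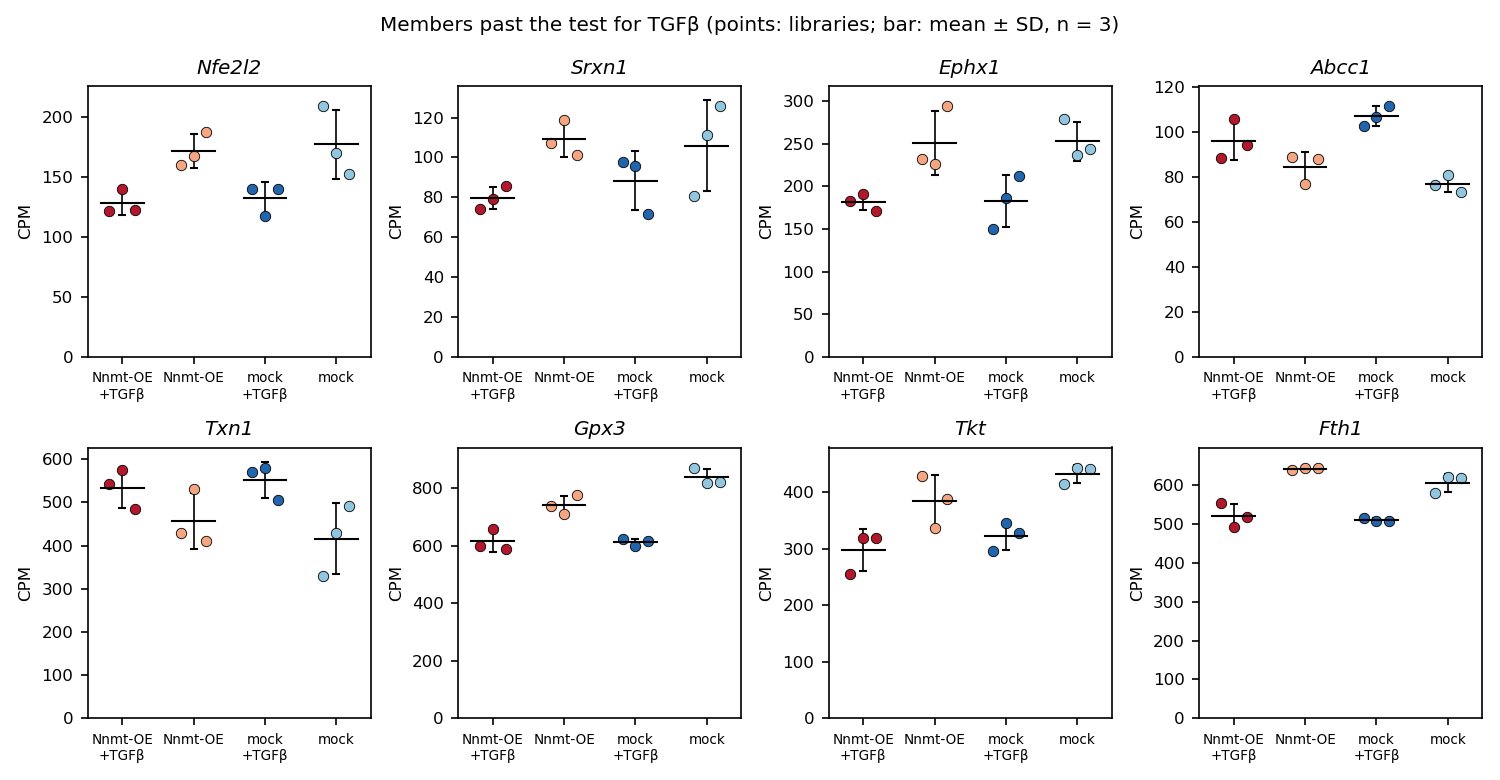
CPM of each library (points) with the group mean ± SD (bars, n = 3) for the 8 members that passed the test for TGFβ over both constructs, on axes that start at 0. For Nfe2l2, Ephx1, Gpx3 and Fth1 the 6 TGFβ libraries (dark) all lie below the 6 untreated libraries (pale), and for the other 4 the groups overlap.

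Glutathione is made in 2 steps, by glutamate-cysteine ligase (catalytic subunit Gclc, modifier subunit Gclm) and glutathione synthetase (Gss), and is recycled by glutathione reductase (Gsr). None of these 5 genes, glutaredoxin (Glrx) included, passed in any contrast, with averaged TGFβ log2 fold changes from -0.24 to -0.02. Gclc had 236, 233 and 239 CPM in TGFβ-treated Nnmt-OE and 215, 229 and 265 CPM in TGFβ-treated mock libraries. Untreated Nnmt-OE libraries had 249.5, 237 and 249 CPM and untreated mock libraries 388, 242 and 249 CPM. Mock replicate 1 was far above the other 11 libraries for Gclc. The averaged log2 fold change of -0.18 ± 0.09 (edgeR adjusted p = 0.305) became -0.05 without that library (adjusted p = 0.766). Gclm, the most read of the class, had 289, 293 and 304 CPM in TGFβ-treated Nnmt-OE and 281, 288 and 348 CPM in TGFβ-treated mock libraries. The untreated groups had 310.0, 270.1 and 286 CPM with Nnmt-OE and 339, 328 and 293 CPM with mock. The averaged interval for Gclm, -0.15 to 0.12 on the log2 scale, is among the narrower ones here.

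In the thioredoxin system 1 of 3 genes passed, against 5.08% of all genes. Txn1, cytosolic thioredoxin, which returns oxidised protein cysteines and peroxiredoxins to their reduced form, had 542, 575 and 484 CPM in TGFβ-treated Nnmt-OE and 570.1, 581 and 505 CPM in TGFβ-treated mock libraries. In untreated libraries it had 429, 531 and 411 CPM with Nnmt-OE and 329, 429 and 491 CPM with mock. In Nnmt-OE cells replicate 2 of the untreated group lay among the TGFβ libraries, and in mock cells the TGFβ libraries all lay above the untreated ones. Txn1 rose 1.24-fold over both constructs (log2 fold change 0.32 ± 0.08, edgeR adjusted p = 0.0249). The call was lost, with adjusted p up to 0.0883, in 7 of the 12 fits that left out a library, those without mock replicate 2, TGFβ-treated mock replicates 1 and 2, Nnmt-OE replicates 1 and 3, and TGFβ-treated Nnmt-OE replicates 1 and 2, and with scaling by library totals (adjusted p = 0.0509). It held without the low mock replicate 1 (log2 fold change 0.24, adjusted p = 0.0155).

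Txnrd1, the selenoenzyme that reduces thioredoxin with NADPH, had 181, 196 and 211 CPM in TGFβ-treated Nnmt-OE and 187, 196 and 224 CPM in TGFβ-treated mock libraries. Without TGFβ the values were 197, 189.9 and 204 CPM with Nnmt-OE and 277, 189 and 189 CPM with mock. Apart from mock replicate 1 the values overlapped closely. Its averaged log2 fold change was -0.06 ± 0.08 (edgeR adjusted p = 0.793), and 0.05 without mock replicate 1 (adjusted p = 0.815). Mitochondrial thioredoxin, Txn2, had an averaged log2 fold change of 0.04.

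The 6 peroxiredoxins, which reduce peroxides with the help of thioredoxin or, for Prdx6, glutathione, did not pass in any contrast. Prdx1, the most read, had 486, 450.4 and 511 CPM in TGFβ-treated Nnmt-OE and 466, 514 and 499.6 CPM in TGFβ-treated mock libraries. Untreated Nnmt-OE libraries had 445, 485 and 510.3 CPM and untreated mock libraries 472, 492 and 479 CPM. The groups overlapped, and the interval of the averaged log2 fold change was -0.10 to 0.14. That of Prdx6 was -0.09 to 0.15 and that of Prdx2 was -0.12 to 0.16. Prdx3 of mitochondria and Prdx4 of the endoplasmic reticulum had the largest values, 0.29 ± 0.16 and 0.26 ± 0.11 (edgeR adjusted p = 0.354 and 0.216).

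Of the glutathione peroxidases 1 of 4 tested passed, against 5.08% of all genes. Gpx3, the secreted plasma glutathione peroxidase, which the kidney tubule is known to supply to the blood, was the most read of all 40 members. It had 598, 659.7 and 589 CPM in TGFβ-treated Nnmt-OE and 622, 601 and 618 CPM in TGFβ-treated mock libraries. The untreated groups had 741, 711 and 776 CPM with Nnmt-OE and 873, 819.8 and 824 CPM with mock. All 6 TGFβ libraries lay below all 6 untreated ones. Gpx3 fell by 22.1% over both constructs (log2 fold change -0.36 ± 0.06, edgeR adjusted p = 1.78e-05), the smallest p among the members.

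In Nnmt-OE cells alone the log2 fold change of Gpx3 was -0.27 ± 0.08 (edgeR adjusted p = 0.0722), which passed in DESeq2 (0.0136) and limma-voom (0.0419), and in mock cells Gpx3 fell by 26.8% (adjusted p = 0.000431). The difference between those responses was 0.18 ± 0.11 (edgeR adjusted p = 0.999). Cytosolic Gpx1 had an averaged log2 fold change of 0.16 ± 0.07 (edgeR adjusted p = 0.266) and Gpx8, of the endoplasmic reticulum, had an interval of -0.25 to 0.25. Gpx4, which reduces lipid hydroperoxides and holds off ferroptosis, had 288 reads in all. Of the 50-base stretches in the last 400 bases of its transcript, 85.8% also occur in other annotated genes, and the pseudogene Gpx4-ps2 held 1366 reads, so the level of Gpx4 is uncertain.

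Catalase and both tested superoxide dismutases did not pass. Sod1, the cytosolic copper-zinc enzyme that turns superoxide into hydrogen peroxide, had 653, 707 and 651 CPM in TGFβ-treated Nnmt-OE and 750.1, 743 and 587 CPM in TGFβ-treated mock libraries. In untreated libraries it had 642, 704 and 654 CPM with Nnmt-OE and 708, 679 and 762 CPM with mock. The groups overlapped, with an interval of -0.14 to 0.10 on the log2 scale. The averaged log2 fold change was -0.02 for catalase (Cat) and -0.12 for the mitochondrial enzyme Sod2. Of the end of the Sod1 transcript 18.2% occurs in Gm8566, which held 1141 reads, and Scaf4 on the opposite strand overlaps it with 4514 reads.

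Of the 6 genes grouped as NADPH enzymes 1 passed, against 5.08% of all genes. Tkt, transketolase, which links the pentose phosphate pathway back to glycolysis, had 255, 319 and 319 CPM in TGFβ-treated Nnmt-OE and 295, 345 and 328 CPM in TGFβ-treated mock libraries. Without TGFβ the values were 428, 336 and 388 CPM with Nnmt-OE and 414, 443 and 439.8 CPM with mock. Within each construct the groups did not overlap, and over all 12 libraries they met where Nnmt-OE replicate 2 (336 CPM) lay below TGFβ-treated mock replicate 2 (345 CPM). Tkt fell by 23.9% over both constructs (log2 fold change -0.39 ± 0.07, edgeR adjusted p = 0.000160), by 22.4% in Nnmt-OE cells (adjusted p = 0.0427) and by 25.4% in mock cells (adjusted p = 0.0128). The Nnmt-OE call of Tkt was lost without Nnmt-OE replicates 1 or 3, any 1 TGFβ-treated Nnmt-OE library or TGFβ-treated mock replicate 2 (edgeR adjusted p up to 0.345), and the mock call without mock replicate 2 or TGFβ-treated mock replicate 1 (up to 0.130).

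The other genes of this group did not follow Tkt past the test. In the pentose phosphate pathway, the averaged log2 fold change was 0.13 for G6pdx and 0.13 for Pgd, the dehydrogenases that make NADPH. It was -0.06 for transaldolase (Taldo1). Outside that pathway it was 0.02 for malic enzyme (Me1) and -0.15 for cytosolic isocitrate dehydrogenase (Idh1). The lowest adjusted p among these 5 was that of Pgd in edgeR, 0.451.

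Of the 2 ferritin chains, which together form the shell that stores iron, 1 passed, against 5.08% of all genes. Fth1, the heavy chain with ferroxidase activity, had 553, 492 and 518 CPM in TGFβ-treated Nnmt-OE and 517, 508 and 507 CPM in TGFβ-treated mock libraries. Untreated Nnmt-OE libraries had 638, 645 and 644 CPM and untreated mock libraries 579.6, 622 and 618 CPM. All 6 TGFβ libraries lay below all 6 untreated ones, and Fth1 fell by 17.4% (log2 fold change -0.28 ± 0.06, edgeR adjusted p = 0.00127). It fell by 18.9% in Nnmt-OE cells (edgeR adjusted p = 0.0387), and its log2 fold change in mock cells was -0.25 ± 0.08 (adjusted p = 0.115). The call in Nnmt-OE cells was lost in 8 of the 12 fits that left out a library, those without any 1 of the 6 Nnmt-OE or TGFβ-treated Nnmt-OE libraries or without TGFβ-treated mock replicates 1 or 2, with adjusted p up to 0.228, as well as with no filter (0.0546) and with the replicate block (0.0576).

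Ftl1, the light chain, had 610.1, 570.0 and 519.8 CPM in TGFβ-treated Nnmt-OE and 598, 565 and 545 CPM in TGFβ-treated mock libraries. The untreated groups had 529, 559 and 546 CPM with Nnmt-OE and 395, 523 and 507 CPM with mock, where replicate 1 was the lowest of all 12. Its log2 fold change of 0.16 ± 0.06 did not pass (edgeR adjusted p = 0.167). Of the end of Ftl1 75.5% and of that of Fth1 13.7% occur in other annotated genes. The copies of Ftl1 held 0 to 16 reads each, against 38545 for Ftl1, and Gm6977 held 274, against 40444 for Fth1. Few reads on the copies do not show whether shared reads were lost from the ferritin genes. Their levels, above all that of Ftl1, are therefore less certain. The difference between the 2 chains was not tested.

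For Nfe2l2, Ephx1, Gpx3 and Fth1, 4 of the 38 (10.5%), all 6 TGFβ libraries were below all 6 untreated ones, against 1.64% of all genes. No member had all 6 above, against 1.47%, so 4 were apart in either direction, against 3.11%. These 4 averaged over 100 CPM, and the share of genes apart was not worked out at that level. More genes at 100 CPM or more passed the averaged TGFβ test than of all genes (13.8% against 5.08%). The averaged calls of Nfe2l2, Ephx1, Gpx3, Tkt and Fth1 held in all 20 other settings, and their log2 fold changes without the 3 libraries that stood apart were -0.35, -0.46, -0.33, -0.44 and -0.28.

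The remaining genes around this pathway were read from 7 lists of 111 genes, of which 86 were tested. Of 11 other regulators, the small MAF, BACH and ubiquitin ligase genes among them, 0 passed for TGFβ over both constructs in edgeR, DESeq2 and limma-voom, against 5.08% of all genes, and 4 had an unadjusted p under 0.05, against 16.6% of all genes. Bach2, a repressor at antioxidant response elements, had a log2 fold change of 0.39 ± 0.15 (edgeR adjusted p = 0.135), and Sqstm1, the autophagy adaptor p62 that binds KEAP1, one of -0.17 ± 0.07 (adjusted p = 0.152). Of 7 genes of cystine import and thiol supply 0 passed in the same 3 tools and 0 had an unadjusted p under 0.05. The shares of all genes in edgeR were the same 5.08% and 16.6%. In this list the smallest p-values belonged to the amino acid exchanger Slc1a4 (0.40 ± 0.26) and to Chac1, which breaks glutathione down (0.19 ± 0.15).

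Among 22 other thioredoxin and glutaredoxin genes 2 fell (9.09%) and 0 rose, against 2.6% of all genes lower and 2.48% higher. Txnip, the thioredoxin-binding inhibitor, had 102, 92.8 and 102 CPM in TGFβ-treated Nnmt-OE and 99.5, 91.6 and 86.7 CPM in TGFβ-treated mock libraries. In untreated libraries it had 154, 129 and 159 CPM with Nnmt-OE and 126, 161 and 142 CPM with mock. All 6 TGFβ libraries lay below all 6 untreated ones. Txnip was 1.52-fold lower over both constructs (log2 fold change -0.60 ± 0.08, edgeR adjusted p = 2.28e-06), and it passed in Nnmt-OE cells (adjusted p = 0.00314) and in mock cells (adjusted p = 0.00109). Sesn3, sestrin 3, had a log2 fold change of -0.31 ± 0.09 and an edgeR adjusted p of 0.0498, just under the threshold, and the list held 1 call in place of 2 in 10 of the 12 fits that left out a library and in 5 other settings.

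Of 12 other NADPH genes 1 rose and 1 fell (16.7% passed), against 5.08% of all genes. H6pd, the hexose-6-phosphate dehydrogenase of the endoplasmic reticulum, was 1.32-fold higher with TGFβ (log2 fold change 0.40 ± 0.09, edgeR adjusted p = 0.00419). It had 96.7, 95.5 and 127 CPM in TGFβ-treated Nnmt-OE and 116, 96.0 and 106 CPM in TGFβ-treated mock libraries, against 84.2, 75.0 and 93.8 CPM in Nnmt-OE and 76.1, 74.7 and 78.5 CPM in mock libraries without it. All 6 TGFβ libraries of H6pd lay above all 6 untreated ones. Idh2, mitochondrial isocitrate dehydrogenase, was 1.21-fold lower (log2 fold change -0.27 ± 0.07, edgeR adjusted p = 0.0135). That call was lost without TGFβ-treated mock replicate 2 or TGFβ-treated Nnmt-OE replicate 2.

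Of 14 other detoxification enzymes and pumps 0 passed in edgeR and limma-voom, against 5.08% and 5.19% of all genes, and 1 passed in DESeq2, against 6.23%. An unadjusted p under 0.05 was found for 2 of the 14, against 16.6% of all genes. Ugdh, which makes the sugar donor for glucuronidation, had a log2 fold change of 0.26 ± 0.08 (edgeR adjusted p = 0.0677) and the aldo-keto reductase Akr7a5 one of -0.37 ± 0.15 (adjusted p = 0.187).

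Of 13 haem and iron genes 1 rose (7.69%), against 2.48% of all genes higher and 5.08% passing either way. Tfrc, the transferrin receptor that brings iron into the cell, had 197, 194 and 213 CPM in TGFβ-treated Nnmt-OE and 223, 216 and 255 CPM in TGFβ-treated mock libraries. Without TGFβ the values were 167, 163 and 194 CPM with Nnmt-OE and 171, 185 and 183 CPM with mock. It rose 1.22-fold (log2 fold change 0.28 ± 0.07, edgeR adjusted p = 0.00997), and without the 3 libraries that stood apart the list had 0 calls. Aco1, which in its iron-free form binds the iron-responsive elements of the ferritin and Tfrc messages, had a log2 fold change of 0.36 ± 0.16 (edgeR adjusted p = 0.234).

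Of 7 genes for sources of superoxide and hydrogen peroxide 1 rose (14.3%), against 2.48% of all genes. Nox4, the constitutively active NADPH oxidase of the kidney, had 11.1, 12.4 and 12.9 CPM in TGFβ-treated Nnmt-OE and 14.1, 7.57 and 11.3 CPM in TGFβ-treated mock libraries. Untreated Nnmt-OE libraries had 5.71, 6.59 and 2.92 CPM and untreated mock libraries 5.50, 9.10 and 6.04 CPM. The Nnmt-OE groups did not overlap and the mock groups did. Nox4 was 1.95-fold higher over both constructs (log2 fold change 0.96 ± 0.26, edgeR adjusted p = 0.0212). The call was lost without the 3 libraries that stood apart, and without mock replicate 3, TGFβ-treated mock replicate 1 or Nnmt-OE replicate 3.

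**Figure D4:**
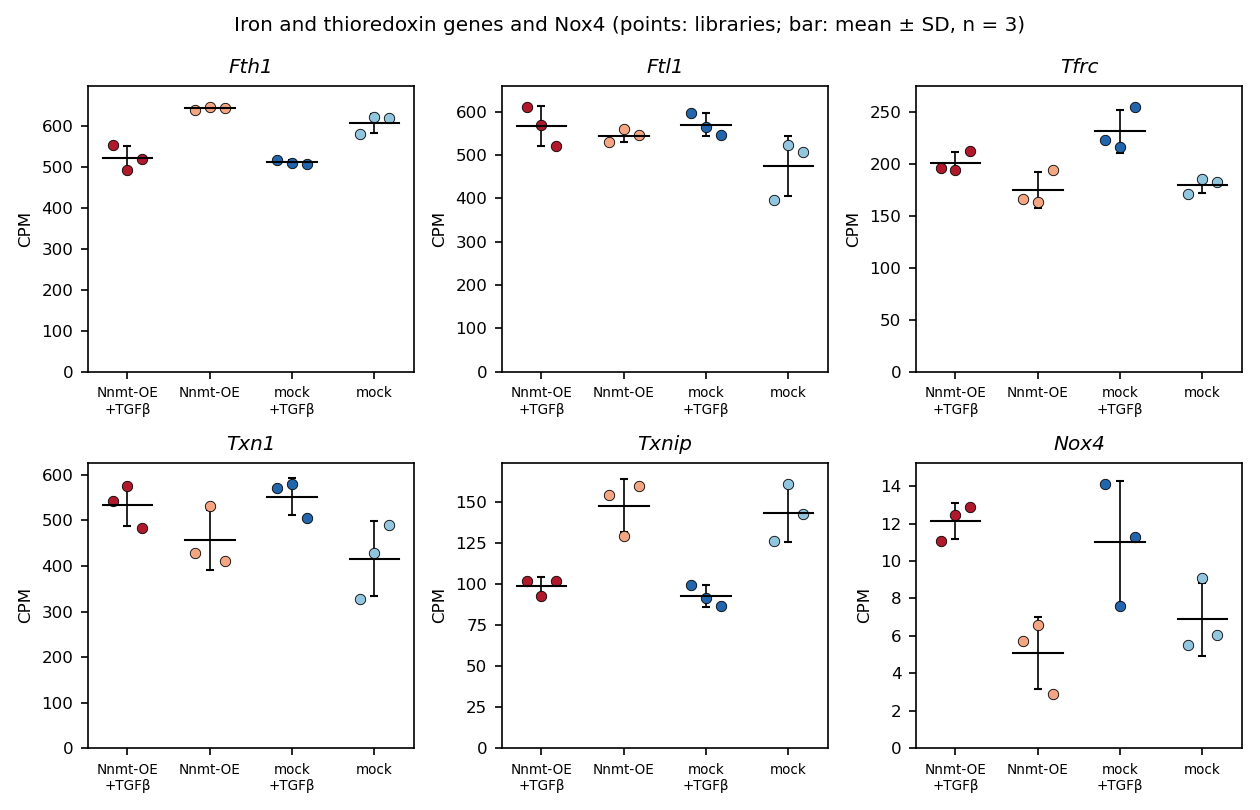
CPM of each library (points) with the group mean ± SD (bars, n = 3) for the ferritin chains Fth1 and Ftl1, the transferrin receptor gene Tfrc, the thioredoxin gene Txn1, its inhibitor Txnip and the oxidase gene Nox4, on axes that start at 0. TGFβ libraries (dark) lie below untreated ones (pale) for Fth1 and Txnip, and the averages of Tfrc, Txn1 and Nox4 are higher with TGFβ in both constructs.

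The second question was what the Nnmt construct did. No member passed for Nnmt-OE against mock: 0 of 38 without TGFβ, against 0.0388% of all genes, 0 of 38 with TGFβ, against 0.0233%, and 0 of 38 averaged over both, against 0.0698%. DESeq2 and limma-voom also gave 0 in each, and at an unadjusted p under 0.05 edgeR gave 4, 1 and 2 of the 38 members, against 5.84%, 4.46% and 6.23% of all genes. The averaged log2 fold change of Nfe2l2 was -0.05 with a 95% interval of -0.21 to 0.12, and that of Keap1 was 0.09 with -0.10 to 0.28. The interval was -0.17 to 0.15 for Ephx1, -0.23 to 0.04 for Gclm, -0.26 to 0.07 for Txnrd1 and -0.14 to 0.10 for Prdx1. For Hmox1 it was -0.51 to 0.26, and for Nqo1 -1.83 to 0.30, too wide to show a difference at this depth. The 2 with an unadjusted p under 0.05 were Tkt, at -0.15 ± 0.07 (edgeR adjusted p = 0.774), and Sod2, at 0.25 ± 0.12 (adjusted p = 0.778). In the 7 surrounding lists 0 of the 86 genes tested passed in any construct contrast. Of the 38 members, 20 had the same sign with and without TGFβ (52.6%), against 53.1% of all genes.

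Mock replicate 1 stood out over all genes, and among the members at about the same rate. It was the highest or the lowest of the 12 libraries for 12 of the 38 members (31.6%), against 29.5% of all genes. It was the highest for Nfe2l2, Hmox1, Blvrb, Gclc, Txnrd1, Gpx3 and Me1, and the lowest for Txn1, Prdx2, Taldo1, Idh1 and Ftl1. For Gclc it had 388 CPM, against 215 to 265 CPM in the other 11 libraries, and for Txnrd1 277 CPM, against 181 to 224 CPM. Without it 8 members passed for TGFβ over both constructs, 6 lower and 2 higher, the same counts as with it, against 4.84% of all genes.

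**Figure D5:**
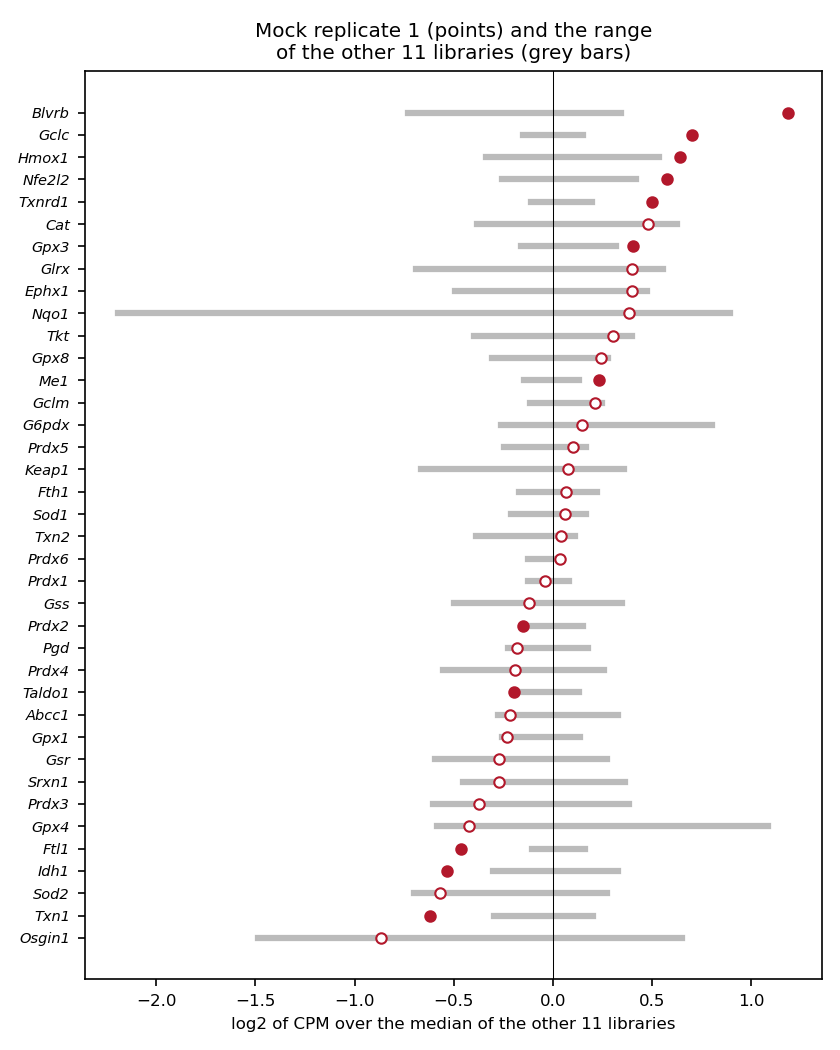
Level of each of the 38 tested members in mock replicate 1 (points), as log2 of its CPM over the median of the other 11 libraries, with the range of those 11 (grey bars). The 12 filled points lie outside the range, 7 above and 5 below it.

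Other measures moved with TGFβ. Ribosomal protein genes made up 1.31 to 1.47% of reads in TGFβ libraries, against 1.1 to 1.27% in untreated ones, and mitochondrially encoded genes 6.05 to 6.62%, against 6.13 to 7.31%. The summed level of 8 fibroblast and pericyte markers was 7.94 to 16.1 CPM in TGFβ libraries, against 1.61 to 8.03 CPM in untreated ones. Most of it was Col1a1 and Col1a2, with 467 and 103 reads in all 12 libraries. Pdgfrb, Dcn and Pdgfra held 25, 15 and 4 reads, and Lum, Col3a1 and Thy1 were at 0. The sum of 10 proximal tubule markers was 719 to 862 CPM, against 941 to 1262 CPM, nearly all of it Aqp1 and Lrp2. The part of these in the results above was not tested. Since the labels number the libraries group by group, group and handling cannot be told apart. Some members also share their 3′ end with another gene, and how strand was treated in counting is not given in the sources used here, so their counts are less certain. On the opposite strand Prdx2 (13769 reads over all libraries) overlaps Junb, which held 6632 reads, G6pdx (1751 reads) overlaps Ikbkg with 1316 reads, and Gss (1303 reads) overlaps Acss2 with 234 reads.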

How the data were processed

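Messenger RNA was measured in 12 libraries, 4 groups of 3, with a 3′ tag kit (QuantSeq forward) from 100 ng of RNA, per the labels' protocols. The authors deposited 1 table of unnormalised read counts by gene. STAR and HTSeq were used with the human build GRCh38, per the submitters' processing notes, although the identifiers are mouse Ensembl identifiers. For the mouse build, the tool versions and the strand, the sources used here say nothing, so reads of overlapping, antisense and copied genes are uncertain. Counts are of reads, since no molecular identifiers are mentioned. The 5 HTSeq totals stayed out of library sizes, with reads outside genes at 26.4 to 28.8% and ambiguous reads at 0.603 to 0.679%. Symbols came from GENCODE M21 and matched 55141 of 55487 identifiers (99.4%).

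Groups were taken from the sample titles. All libraries entered 1 fit in edgeR 4.0.16 under R 4.3.3, with filterByExpr (minimum count 10, minimum total 15), TMM scaling (0.981 to 1.011) and a robust quasi-likelihood F test, whose p-values were adjusted by Benjamini-Hochberg over 12897 genes, with a threshold of 0.05. CPM use the TMM-scaled library sizes, and averaged contrasts are the mean of the 2 contrasts they join. For genes of 10 CPM or more the median 95% interval reaches 0.35 to either side on the log2 scale between 2 groups, and 0.25 for averaged contrasts. The test was also run on simulated counts, drawn with no library standing apart, so that run says nothing of such libraries. Alternatives were DESeq2 1.42.0, limma-voom (limma 3.58.1), scaling by RLE or by library totals, no filter, a filter of 50 counts and 1 CPM in 3 libraries, a replicate block, the groups compared alone, each library left out and the 3 libraries that stand apart left out.

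The members and lists were chosen with earlier results of these data known. Named with their values are members past the test in any contrast, Nfe2l2, Keap1 and 6 canonical targets, the most read member of each role, and for the other lists the genes past the test or the 2 with the smallest p. Other members named singly were chosen after their values were seen. Promoter windows came from RefSeq (GRCm38.p6). No windows were matched for 6 members, Abcc1, Hmox1, Gclc, Gsr, Prdx6 and Sod3. Some genes of the lists are not reported here.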

Additional observations from a re-analysis of the deposited data

How the results depend on the processing

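For TGFβ against none over both constructs 8 members passed, with 5 to 8 when a library was left out, 5 without TGFβ-treated Nnmt-OE replicate 2, and no count further than 1.5 times away in any other setting. Of all genes 3.54% (no filter) to 6.23% (DESeq2) passed in that contrast over the settings, and 3.81% without TGFβ-treated Nnmt-OE replicate 2. In Nnmt-OE cells the 3 calls (1.4% of all genes) became 5 with library totals (1.47%), 5 in DESeq2 (2.29%) and 6 with the compared groups alone (2.87%). They became 5 without the 3 libraries that stand apart (1.98%), and 0 to 6 when a library was left out (0.73 to 2.3%). In mock cells the 4 calls (1.43% of all genes) became 7 in DESeq2 (2.37%) and 2 with the compared groups alone (0.751%). When a library was left out they became 1 to 5 (0.737 to 1.41%). Construct contrasts and the interaction gave 0 in every setting. The thioredoxin and glutaredoxin list (2 calls) had 1 with RLE scaling, no filter, a stricter filter, the replicate block and without the 3 libraries that stand apart, and 1 to 2 when a library was left out. The NADPH supply list (2 calls) had 1 to 2 when a library was left out. Detoxification had 1 in DESeq2 in place of 0. Without the 3 libraries that stand apart, haem and iron handling had 0 in place of 1 and the oxidant sources 0 in place of 1, with 0 to 1 for the oxidant sources when a library was left out. Small log2 fold changes turned sign over both constructs: Gclm, from -0.067 to 0.012 over the left-out libraries, was 0.007 without mock replicate 1, 0.012 and 0.006 without TGFβ-treated mock replicates 1 and 2, and 0.011 without Nnmt-OE replicate 1, and Txnrd1, from -0.105 to 0.048, was 0.048 without mock replicate 1. Of 615 values for single genes under 21 settings, 534 kept direction and side of the threshold, 49 lost the call, 27 gained it and 5 turned sign. The log2 ratio of Nnmt in Nnmt-OE over mock cells ranged over the left-out libraries from 0.22 to 0.482 without TGFβ and from -0.319 to -0.011 with it. Beyond these values, the causes were not tested.

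Nothing in the labels says that equal replicate numbers mark a shared culture or day. Of 18 same-numbered pairs, 0 had a correlation of their deviations over 0.1 (range -0.102 to 0.0467). Pairs with other numbers ranged from -0.0655 to 0.0863. Whether same-numbered libraries share a weak batch cannot be told from these values. With the replicate number as a block, 8 members passed over both constructs (4.85% of all genes), 2 in Nnmt-OE cells (1.3%) and 5 in mock cells (1.32%). The construct contrasts and the interaction had 0 (0 to 0.0698%). Depth limits members under 10 CPM such as Nqo1, Gpx4, Blvrb and Osgin1.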
